A study of Mus musculus with 7 samples.

Results

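The genes described here are 9 commonly used transcriptional targets of YAP and the TEAD factors: Cyr61 and Ctgf, which the count table lists under their newer symbols Ccn1 and Ccn2, and Ankrd1, Amotl1, Amotl2, Lats2, Axl, Ajuba and Crim1. They were chosen by name, and all 9 were found among the 12771 genes of the table. RNA came from cancer-associated fibroblasts (CAFs) of orthotopic pancreatic tumors, which KPC cells, a mouse pancreatic cancer line, formed within 2 to 3 weeks of injection into young adult male C57BL/6 mice. The KPC cells carried a lentiviral short hairpin RNA that silenced Brca2 (shBrca2, n = 4) or a non-targeting hairpin (shControl, n = 3), and per the study each library came from 1 mouse. The fibroblasts sought were those of the host, which received no hairpin. Cells were sorted alive by podoplanin on their surface and the lack of CD45, EpCAM and CD31, and their poly(A) RNA was read at the 3' end. Whether cancer cells were among the sorted cells was not tested. The cancer cells had been selected with puromycin, and per the study all tumors came from the KPC line.

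YAP, encoded by Yap1, and its paralog TAZ, encoded by Wwtr1, are coactivators without a DNA-binding domain that enter the nucleus and bind TEAD factors. The Hippo kinases, ending in LATS1 and LATS2, phosphorylate them and keep them in the cytoplasm, while stiff matrix, cell spreading and actin tension favor their nuclear entry. In fibroblasts YAP is known for its role in matrix stiffening and in the maintenance of the CAF state. Several of the targets feed back on the pathway: LATS2 and the angiomotins restrain YAP, and Ajuba restrains LATS.

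TEAD factors recognize the motif GGAATG, so the promoters of the target genes were read for it on both strands. The RefSeq promoter table (GRCm38.p6, the assembly known as mm10) gave windows of 250 bases before and 50 bases after an annotated start for 8 of the 9 genes, and Ccn2 was not among them. 7 of these 8 genes had at least 1 match, Amotl1 being the exception. A match was present in 14.7% of all 32851 windows and in 14.8% of the 10086 genes that have both a count and a window. The 8 genes are known targets chosen by name, so this share is a description. The matches are shown with 12 bases on each side, read on the strand that carries GGAATG, which is in capitals.
Ankrd1, distal match (chr19:36120037-36120066, minus strand): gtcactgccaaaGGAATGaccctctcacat
Ankrd1, proximal match (chr19:36119950-36119979, minus strand): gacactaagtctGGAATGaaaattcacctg
Ccn1 (chr3:145650071-145650100, plus strand): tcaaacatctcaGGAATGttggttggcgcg
Amotl2 (chr9:102717727-102717756, minus strand): gctgctatgccaGGAATGtgagagtttcag
Lats2 (chr14:57746102-57746131, minus strand): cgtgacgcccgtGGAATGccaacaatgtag
Axl (chr7:25788949-25788978, minus strand): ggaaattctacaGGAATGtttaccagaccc
Ajuba, distal match (chr14:54577830-54577859, plus strand): gaggggcactgtGGAATGtatccatcaacg
Ajuba, proximal match (chr14:54577808-54577837, plus strand): ttgtttacagttGGAATGcgcggaggggca
Crim1 (chr17:78200157-78200186, plus strand): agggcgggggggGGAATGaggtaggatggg

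Ankrd1 and Ajuba were the genes with 2 matches. The Ankrd1 matches lay on the strand of the gene, from -210 to -205 and from -123 to -118, where -1 is the base before the start. Those of Ajuba lay on the opposite strand, from -186 to -181 and from -164 to -159. The single matches of Ccn1 (-103 to -98) and Amotl2 (-65 to -60) were also on the opposite strand, and those of Axl (-233 to -228) and Crim1 (-79 to -74) on the strand of the gene. The match of Lats2 lay just after the first of its 2 listed starts, from base 5 to base 10. No window of these genes held the AP-1 motif TGACTCA or TGAGTCA, which was in 5.20% of all windows, or the serum response element known as the CArG box, which was in 1.63%. For Amotl2 and Amotl1 the start in the table lies 713 and 47974 bases inside the annotated extent of the gene, so other starts were not read.

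**Figure D1:**
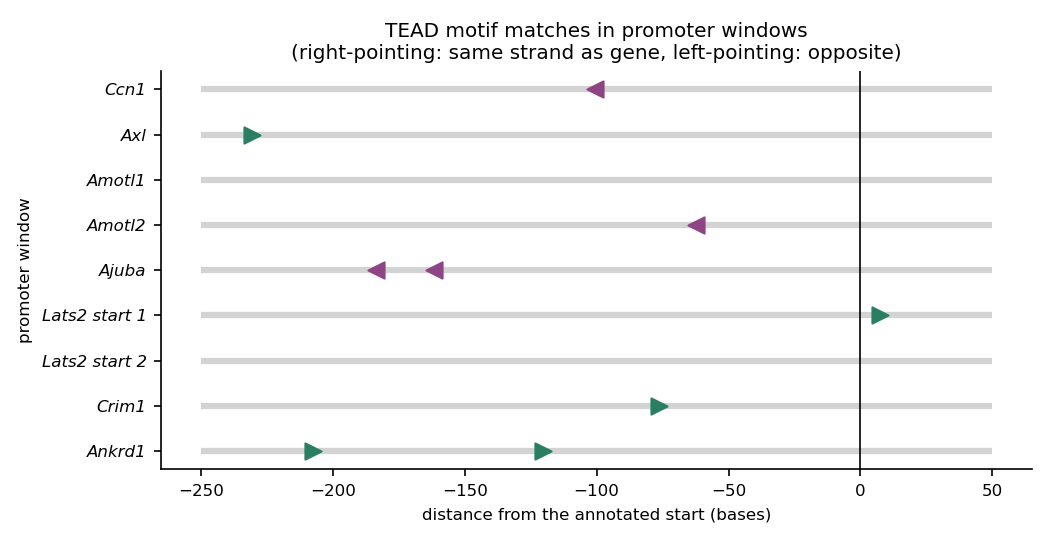
Positions of GGAATG matches (triangles) in the promoter windows of 8 target genes, plotted as distance in bases from the annotated start, with Lats2 shown for both of its starts. Right-pointing triangles are on the strand of the gene and left-pointing ones on the opposite strand; Ankrd1 and Ajuba carry 2 matches each and Amotl1 carries none.

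The 250 bases before the start are given for Ankrd1 (chr19:36119845-36120094, minus strand, GRCm38.p6) and Ccn1 (chr3:145649986-145650235, minus strand), the target that rose and a standard readout of YAP. Both are written 5' to 3' on the strand of the gene, with the TEAD motif in capitals on whichever strand it lies.
Ankrd1: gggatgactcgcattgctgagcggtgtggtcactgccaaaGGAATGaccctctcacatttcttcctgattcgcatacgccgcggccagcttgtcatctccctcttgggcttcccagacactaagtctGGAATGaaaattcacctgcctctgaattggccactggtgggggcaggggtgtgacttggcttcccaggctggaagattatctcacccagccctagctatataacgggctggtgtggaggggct
Ccn1: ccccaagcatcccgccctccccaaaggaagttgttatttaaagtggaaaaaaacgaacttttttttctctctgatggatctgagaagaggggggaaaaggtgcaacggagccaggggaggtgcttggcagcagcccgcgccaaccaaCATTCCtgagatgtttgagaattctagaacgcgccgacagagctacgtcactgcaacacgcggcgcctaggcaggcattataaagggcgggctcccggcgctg

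Library totals ran from 1898679 to 5990579 counts, and shBrca2 replicate 3 was the smallest. Brca2 itself had 10.3 to 17.7 normalized counts in shControl CAFs and 8.64 to 14.6 in shBrca2 CAFs, which does not measure a knockdown that was made in other cells. All 7 fibroblast markers examined were present, 1 of them being Pdpn, which encodes the podoplanin used for the sort. Pdgfra was at 549 to 688 normalized counts in shControl and 591 to 656 in shBrca2. Pdpn was at 600 to 670 and 457 to 590, with groups apart, and was not called (DESeq2 adjusted p = 0.42). Of these 7, the matrix proteoglycan genes Dcn (log2 fold change -0.77) and Lum (-1.18) were called lower, and 6 were below 0. The summed level was 122092 to 139154 in shControl and 96603 to 116157 in shBrca2. Collagen genes and Dcn made up most of this sum, with Col3a1 at means of 54982 in shControl and 40400 in shBrca2. Col3a1 was not called (DESeq2 adjusted p = 0.14), and the groups of Dcn and of Lum overlapped. By the call defined below, 9.04% of all genes tested were called, 3.77% higher and 5.27% lower. Markers of other cells differed between the groups: 4 of 7 epithelial markers were called higher in shBrca2 CAFs (Krt7, Krt8, Krt18 and Krt19). The summed level of the epithelial list was 412 to 1166 in shControl and 1468 to 2059 in shBrca2. Cdh1 was at 0.854 to 6.33 and at 6.91 to 17.3, and was not called. Muc1 and Cldn7 stood at log2 fold changes of 0.01 and 0.58, and neither was called. Epcam and Cldn4 were not among the 12771 genes listed with counts. Of 8 mesothelial markers 2 were called higher (Slpi and Krt19, the second shared with the epithelial list), with sums of 1808 to 5374 and 8587 to 10015. Without Slpi the sums of the other 7 overlapped, at 900.3 to 2887 and 2370.2 to 2877. Upk3b, Lrrn4 and Wt1 stood at -0.40, -0.09 and 0.15. Msln, Upk1b and Gpm6a stood at 0.89, 0.70 and 0.97, and none of these genes was called. The groups of Msln were apart, at 96.5 to 519 and 558 to 665, and 6 of the 8 markers were above 0. Of 5 immune markers 2 were called higher (Csf1r and C1qa) and 1 lower (Jchain), with sums of 292 to 313 and 378 to 405. Ptprc, which encodes CD45, Adgre1, Cd3e and Cd79a were on the immune list but not among the genes with counts. Csf1r alone was at 86.6 to 149 and 226 to 276, and the groups of C1qa overlapped, at 5.13 to 7.59 and 3.45 to 33.6. Cd68 and Lyz2 stood at -0.32 and -0.26, and 3 of the 5 immune markers were below 0. Of 7 pericyte markers 1 was called higher (Notch3, 2.18-fold), with sums of 1368 to 1841 and 1258 to 1745. Of 4 endothelial markers 0 were called by DESeq2 and 0 by edgeR, and 2 had an unadjusted DESeq2 p under 0.05 (Pecam1 and Tek, both lower in shBrca2). Pecam1 also passed the adjusted p (DESeq2, 0.031), but its mean of 3.87 normalized counts was under the 5 that a call requires. The sums of the 4 markers were 70.9 to 127 and 94.99 to 143. Cdh5, Tie1 and Emcn were on the endothelial list but not among the genes with counts. Pecam1 was at 1.95 to 17.7 and 0 to 1.72, and Kdr at 33.3 to 102 and 74.3 to 105.

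The target genes did not move together. Ankrd1 rose 4.53-fold in shBrca2 CAFs, Amotl2 fell to 0.475 of its shControl level, and the other 7 genes were not called. A call required a DESeq2 likelihood ratio test with a Benjamini-Hochberg adjusted p under 0.1 over all genes, an absolute log2 fold change over 0.5 and a mean normalized count over 5. Over all 12768 genes tested 9.04% were called, 3.77% higher and 5.27% lower, and nothing is read from 1 gene in each direction among 9 against that background. The median log2 fold change (shBrca2 over shControl) was -0.09 over the 9 target genes and 0.00 over all genes with a mean over 5. In such bulk samples fewer cells with a transcript and less of it per cell cannot be told apart.

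**Figure D2:**
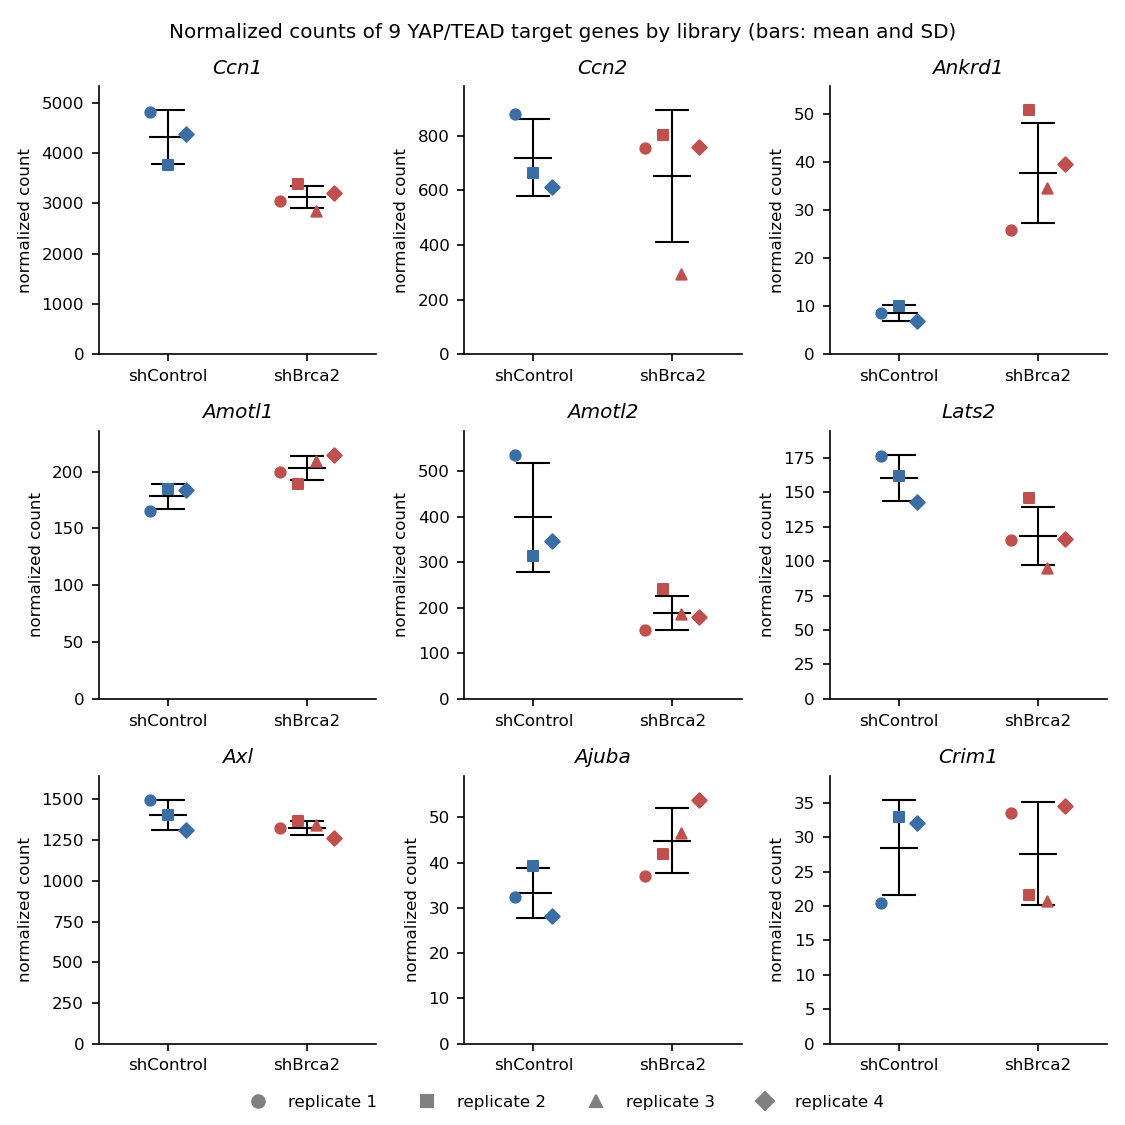
Normalized counts (y axis, from 0) of the 9 target genes in each library, with the group mean and SD as bars and the replicate number as symbol. The groups lie apart for Ankrd1, Amotl2, Ccn1 and, by a small gap, Amotl1; shBrca2 replicate 3 stands low for Ccn2.

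Ankrd1 (chr19:36111965-36119844, GRCm38.p6) encodes an ankyrin repeat protein of the muscle stress response that is induced by stretch and is a standard YAP readout. In shControl replicates 1, 2 and 4 it had 8.54, 10.1 and 6.81 normalized counts (raw counts divided by the library's size factor), against 25.8, 50.7, 34.5 and 39.6 in replicates 1 to 4 of shBrca2, and values of other genes follow this order. Every shBrca2 library was above every shControl library, and the lowest of the former, 25.8, stood well clear of the highest of the latter, 10.1. The log2 fold change was 2.18 ± 0.44 (standard error, SE, here and after every such value; DESeq2 adjusted p = 3.9e-05). Of 11632 genes with a mean over 5, only 75 had a larger one. The counts behind it were low, from 7 to 10 raw counts per shControl library and from 20 to 87 per shBrca2 library. It was called in all 12 alternative fits, with log2 fold changes from 1.98 to 2.33. The keratins named above were called higher in the same group, and their part in the Ankrd1 difference was not tested.

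Amotl1 (chr9:14541966-14662974) and Amotl2 (chr9:102717091-102733418) encode angiomotin-like proteins, junction and actin-binding scaffolds that bind YAP and hold it outside the nucleus. Amotl2 had 535, 314 and 345 normalized counts in shControl and 151, 240, 187 and 179 in shBrca2. The groups were apart, with shControl replicate 1 well above the other controls. Amotl2 fell with a log2 fold change of -1.07 ± 0.24 (SE, DESeq2 adjusted p = 0.00055), which was -0.80 without shControl replicate 1 (DESeq2 adjusted p = 0.029). Amotl2 was called in all 12 alternatives.

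Amotl1 had 166, 185 and 184 normalized counts in shControl and 200, 189, 209 and 214 in shBrca2. All shBrca2 values were above all shControl values, but the gap was 189 against 185. Its log2 fold change was 0.19 ± 0.17 (SE, DESeq2 adjusted p = 0.64, 95% interval -0.14 to 0.51). Of the 9 target genes 4 had groups that did not overlap, 2 in each direction. Over all genes tested 17.1% did, 7.79% with shBrca2 higher and 9.30% with it lower.

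Ccn1 (chr3:145646971-145649985) and Ccn2 (chr10:24595442-24598683) encode the secreted matricellular proteins CYR61 and CTGF, which bind integrins and are the most widely used YAP readouts. Ccn1 had 4811, 3757 and 4389 normalized counts in shControl and 3056, 3387, 2853 and 3197 in shBrca2. Its groups were apart, with shBrca2 at 0.723 of the shControl level. The log2 fold change of -0.47 ± 0.14 passed the adjusted p (DESeq2 adjusted p = 0.023) but not the fold threshold. By adjusted p alone 3 of the 9 target genes passed, and 9.79% of all genes did. Without shControl replicate 2 its log2 fold change was -0.56, and without shBrca2 replicate 2 it was -0.51, and it was called in both fits. The adjusted p (DESeq2) did not pass without shControl replicate 1 (0.29) or 4 (0.17) or without shBrca2 replicate 1 (0.21) or 4 (0.15). A block for replicate number raised its adjusted p (DESeq2) to 0.47, the highest over the alternatives.

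Ccn1 is also an immediate early gene, of the kind induced by tissue dissociation. Among all genes tested DESeq2 called 9.04%. Of 12 immediate early genes, among them Fos, Jun and Egr1, 0 were called by DESeq2 and 0 by edgeR. An unadjusted DESeq2 p under 0.05 was found for 3, Junb, Egr1 and Hspa1a, at log2 fold changes of -0.44, -0.51 and 0.74. Of the 12 genes 9 were below 0 and 3 above. The median log2 fold change of the 12 was -0.14. Their summed levels of 54597 to 77972 in shControl and 50674 to 68756 in shBrca2 overlapped. The part of dissociation in the Ccn1 difference was not tested.

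Ccn2 had 880, 665 and 614 normalized counts in shControl and 755, 803, 294 and 759 in shBrca2. Of the shBrca2 libraries 3 lay within the shControl range, and replicate 3 lay below all others. The log2 fold change was -0.14 ± 0.30 (SE, DESeq2 adjusted p = 0.89, 95% interval -0.73 to 0.46). Without shBrca2 replicate 3 it was 0.10.

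Lats2 lies at chr14:57689662-57746212 and Ajuba at chr14:54567469-54577661. LATS2 is a kinase that phosphorylates YAP and TAZ, and Ajuba is a LIM domain protein that binds and inhibits LATS kinases. Lats2 had 176, 162 and 143 normalized counts in shControl and 115, 146, 94.99 and 116 in shBrca2, where replicate 2 alone reached the shControl range. With a log2 fold change of -0.42 ± 0.21 it did not pass (DESeq2 adjusted p = 0.25). Ajuba had 32.5, 39.2 and 28.2 normalized counts in shControl and 37.0, 42.0, 46.6 and 53.9 in shBrca2, with overlap at replicate 1. The log2 fold change of Ajuba was 0.43 ± 0.30 (SE, DESeq2 adjusted p = 0.50). The counts of Lats2 are uncertain, since 2955 of its 10486 exon bases are shared with Gm49361 on the same strand in GENCODE vM39.

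Axl (chr7:25756500-25788924) encodes a receptor tyrosine kinase for the secreted ligand GAS6, and Crim1 (chr17:78200233-78376592) a membrane protein that binds bone morphogenetic proteins. Axl differed little between the groups, at 1496, 1407 and 1311 normalized counts in shControl and 1324, 1370, 1340 and 1262 in shBrca2. The log2 fold change was -0.09 ± 0.12, and its 95% interval of -0.33 to 0.16 lay inside the fold threshold on both sides. Crim1 had 20.5, 32.9 and 32.1 normalized counts in shControl and 33.6, 21.6, 20.7 and 34.6 in shBrca2, with full overlap. The fold change on the log2 scale was -0.03 ± 0.36, and at 12 to 39 raw counts per library the 95% interval was wide, from -0.73 to 0.68.

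A further 15 genes of YAP and TEAD target signatures were compared in the same fit. 2 were called, both higher, and 13 were not. The share called higher over all genes tested was 3.77%. Nt5e, which encodes the adenosine-producing surface enzyme CD73, had 28.2, 87.3 and 24.3 normalized counts in shControl and 212, 145, 204 and 149 in shBrca2. The groups were apart although shControl replicate 2 was well above the other controls, and the log2 fold change was 1.95 ± 0.38 (SE, DESeq2 adjusted p = 7.9e-05). It was called in all 12 alternatives and stood at 2.75 without shControl replicate 2. Dock5, a guanine nucleotide exchange factor for Rac, rose 1.88-fold (DESeq2 adjusted p = 0.061), but was called in only 6 of 12 alternatives. It lost the call without any 1 of shControl replicates 1 and 4 and shBrca2 replicates 1, 2 and 4, where its log2 fold change ran from 0.64 to 0.98, and with the replicate block (1.01). The median log2 fold change of the 15 genes was -0.07. Asap1, whose groups were apart, had a log2 fold change of -0.63 and did not pass (adjusted p by DESeq2 0.37). The genes Myof, Igfbp3 and Ccdc80, at 425, 2622 and 4270 mean normalized counts in shControl, had log2 fold changes of -0.04, -0.07 and -0.13.

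The coactivators and TEAD factors themselves were then examined, and 7 of the 10 listed were in the table. Yap1 had 249, 223 and 249 normalized counts in shControl and 231, 222, 288 and 221 in shBrca2. Its log2 fold change was -0.01 ± 0.17 (95% interval -0.35 to 0.33). Wwtr1 was at 0.16 ± 0.27. Tead1, Tead2 and Tead3 stood at 0.29, 0.69 and -0.32 on the log2 scale, none passing the test (DESeq2 adjusted p = 0.39, 0.13 and 0.29). Tead2 was called without shControl replicate 2 (0.97) and without shBrca2 replicate 3 (0.82). Vgll4, which competes with YAP for TEAD, was at -0.05 ± 0.33.

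Vgll3, another TEAD-binding cofactor, was the gene of this list that was called. Its normalized counts were 243, 168 and 196 in shControl and 95.5, 161, 81.2 and 88.4 in shBrca2. The groups were apart, narrowly so because shBrca2 replicate 2 came close to shControl replicate 2. Vgll3 had a log2 fold change of -0.91 ± 0.27 (SE, DESeq2 adjusted p = 0.018). It was not called without shControl replicate 1 (-0.75, DESeq2 adjusted p = 0.16) or with the replicate block (DESeq2 adjusted p = 0.20).

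Of 14 upstream Hippo kinases and their partners 1 was called higher and 1 lower, beside 3.77% and 5.27% of all genes tested. Map4k4, a kinase that can phosphorylate LATS in parallel to the MST kinases, had 364, 457 and 375 normalized counts in shControl and 687, 473, 898 and 654 in shBrca2. Map4k4 rose by 0.76 ± 0.22 on the log2 scale (SE, DESeq2 adjusted p = 0.017), but was not called without shControl replicate 1 (0.70, DESeq2 adjusted p = 0.12) or with the replicate block (0.59, DESeq2 adjusted p = 0.30). Frmd6, a FERM domain protein placed upstream of the kinases, had 454, 395 and 489 in shControl and 259, 291, 380 and 233 in shBrca2. Frmd6 had a log2 fold change of -0.63 ± 0.20 (SE, DESeq2 adjusted p = 0.031), and it was not called without shControl replicate 1 or 4 or shBrca2 replicate 1 or 4 (DESeq2 adjusted p = 0.15 to 0.21). The MST kinase genes Stk3 and Stk4, Lats1 and Nf2 had log2 fold changes of -0.08, 0.12, 0.12 and -0.12, and none was called. Wwc1, a scaffold of the kinases, had a mean of 11.7 normalized counts in shControl and 22.7 in shBrca2, and was not called (DESeq2 adjusted p = 0.25). Mob1a and Mob1b had too few counts for a comparison, with means under 8 normalized counts.

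**Figure D3:**
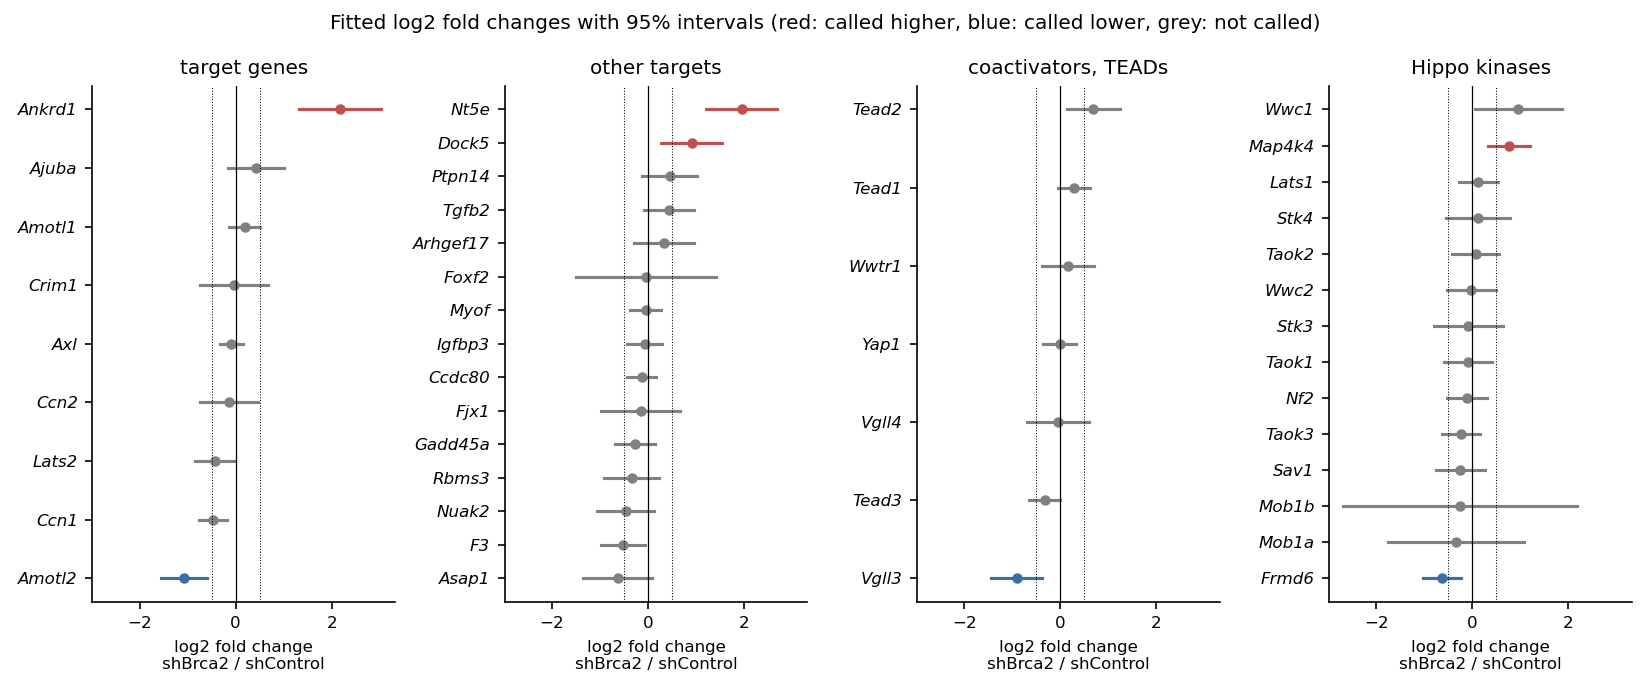
Log2 fold change of shBrca2 over shControl CAFs (x axis) for the 9 target genes, 15 other targets, 7 coactivator and TEAD genes and 14 Hippo kinase genes, with lines for 95% intervals and dotted lines at the fold threshold of 0.5. In each panel most intervals cross 0, and Ankrd1 at 2.18 and Nt5e at 1.95 lie farthest to the right.

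Relatives and ligands of the targets were examined next. In the CCN family Ccn3 and Ccn5, which lie outside the list of YAP targets used here, were both called lower. Among all genes tested 5.27% were called lower. Ccn3, whose product opposes CCN2 in matrix production, had 562, 340 and 416 normalized counts in shControl and 151, 192, 209 and 200 in shBrca2. The groups were far apart, and the log2 fold change was -1.23 ± 0.22 (SE, DESeq2 adjusted p = 2.5e-06). Ccn5, which lacks the C-terminal domain of the family, had 577, 538 and 588 in shControl and 297, 307, 212 and 331 in shBrca2. Its groups were also far apart, at a log2 fold change of -0.98 ± 0.18 (SE, DESeq2 adjusted p = 7.9e-06). Both were called in all 12 alternatives. Ccn4 stood at 0.62 and was not called (DESeq2 adjusted p = 0.13).

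Gas6, the ligand of Axl, had 3805, 2619 and 5029 normalized counts in shControl and 1886, 1834, 2180 and 1640 in shBrca2. No shBrca2 library reached the lowest shControl library. Its level fell, with a log2 fold change of -1.02 ± 0.22 (SE, DESeq2 adjusted p = 0.00027). It was called in all 12 alternatives and stood at -0.77 without shControl replicate 4. Tyro3, a receptor of the same family as Axl, was called lower at -0.65 (DESeq2 adjusted p = 0.098). That call was lost in 6 of 12 alternatives, namely the replicate block and leaving out shControl replicate 2 or 4 or shBrca2 replicate 1, 2 or 4. Without shControl replicate 2, its highest library, the log2 fold change was -0.41. The receptor Mertk, at -0.10, and the ligand gene Pros1, at -0.50, were not called.

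**Figure D4:**
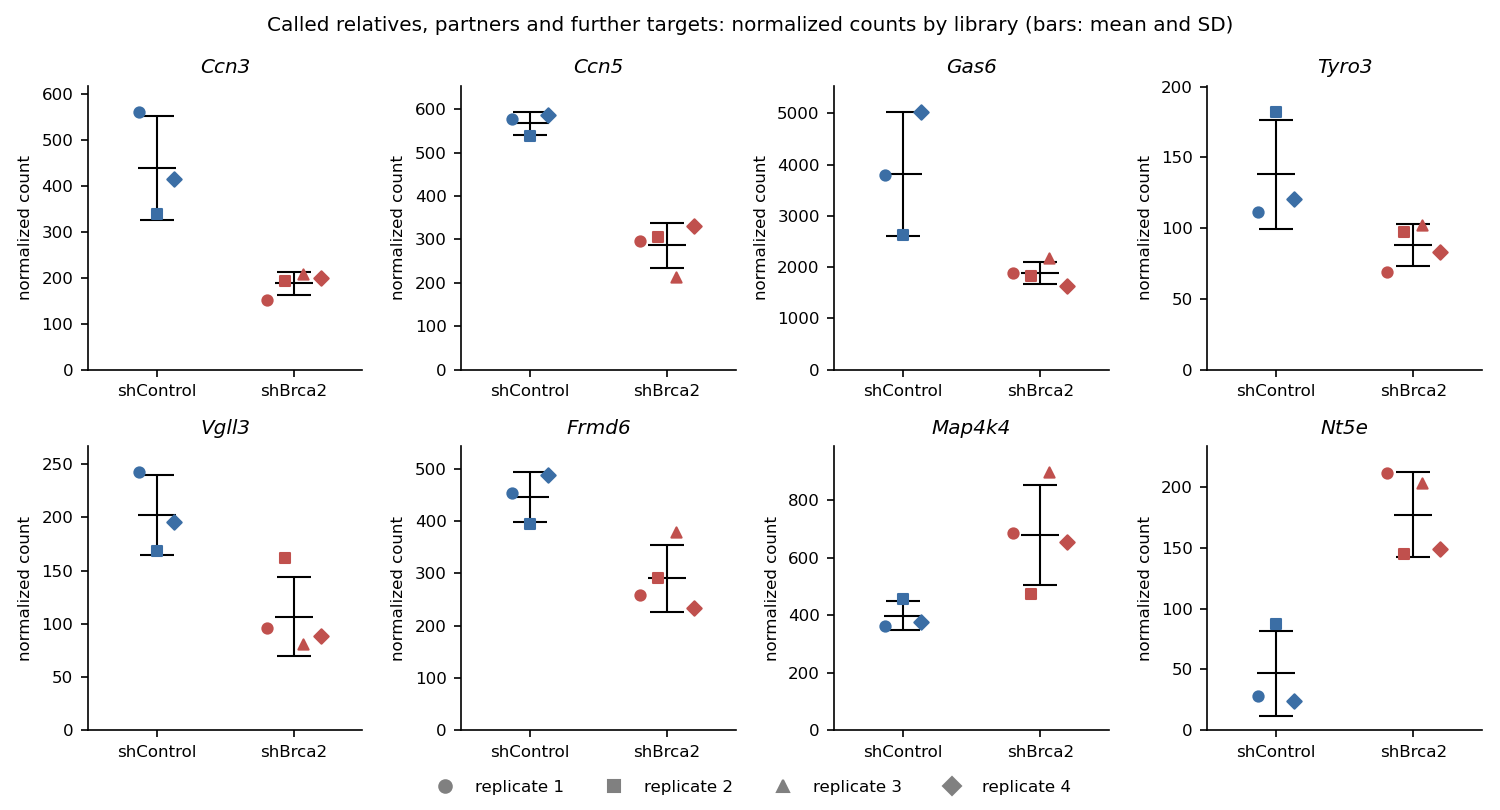
Normalized counts (y axis, from 0) by library for 8 called genes around the targets, with group mean and SD as bars and the replicate number as symbol. Ccn3, Ccn5, Gas6, Tyro3, Vgll3 and Frmd6 sit lower and Map4k4 and Nt5e higher in all 4 shBrca2 libraries than in the 3 shControl libraries.

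The genes whose profile over the 7 libraries was most like that of a target were found as the smallest root mean square difference between gene-centered log2(normalized count + 1) values, among genes with a mean over 50. For Ankrd1 these were Bnip3, Tcim and Hilpda, with differences of 0.27, 0.32 and 0.34 against a spread of Ankrd1 itself of 1.03, and all 3 were called higher. For Ccn2 they were Hdac2, Sec63 and Arxes2 (0.17, 0.17 and 0.18 against a spread of 0.49), and for Ccn1 Naxd, Serf2 and Tmem18 (0.07 each against 0.26). None of these 6 was called. Since the genes were picked by profile, group difference included, their calls follow from that choice and are a description only.

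The stability of the 9 fold changes was examined by leaving out each library and by changing the test or scaling. Ankrd1 and Amotl2 stayed past both thresholds throughout. Ccn1 and Lats2 kept a negative sign, Ajuba and Amotl1 a positive one, and Axl stayed between -0.13 and -0.04. Ccn2 and Crim1 changed sign.

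**Figure D5:**
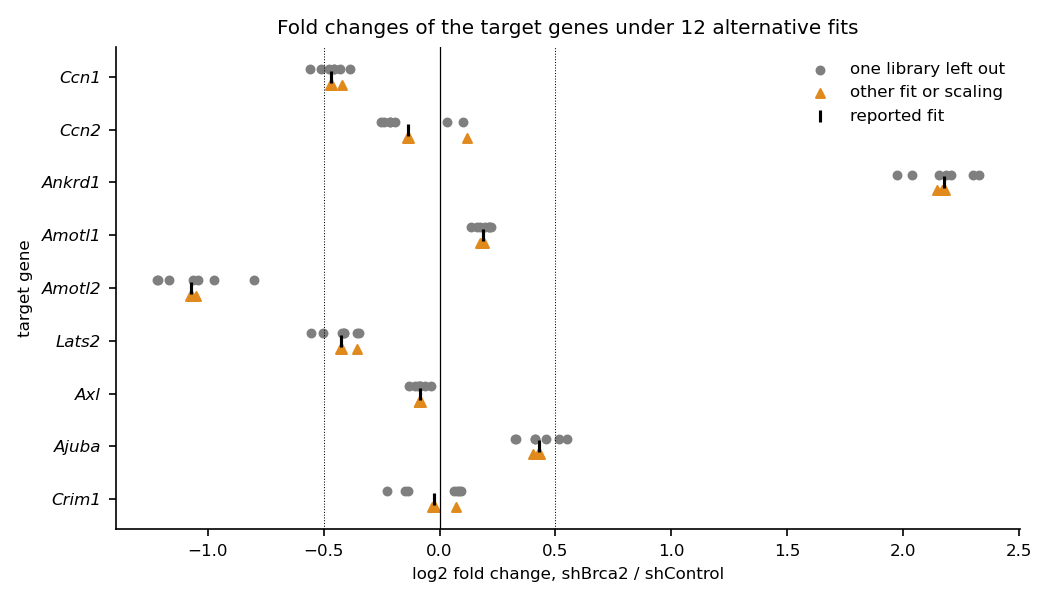
Log2 fold change (x axis) of each target gene in the reported fit (black bar), with each library left out (grey points) and under the other tests, scalings, filter and replicate block (orange triangles); dotted lines mark the fold threshold of 0.5. Ankrd1 ranges from 1.98 to 2.33 and Amotl2 from -1.22 to -0.80, while Ccn2 and Crim1 fall on both sides of 0.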

How the data were processed

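The authors deposited raw counts by gene symbol, not normalized, in 1 table with 7 library columns (3 shControl, 4 shBrca2). The submitters' processing notes name bcl2fastq, cutadapt, STAR 2.4.2a, HTSeq, DESeq2 and the build mm10; strand setting and collapsing of molecular barcodes are not given in the sources used here. Intervals and errors cover the spread between these libraries only.

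DESeq2 1.42.0 (R 4.3.3) was run on all listed genes with its default size factors, testing the group by a likelihood ratio test as the study's methods state, and p-values were adjusted over all 12768 genes tested. 95% intervals are the estimate ± 1.96 standard errors. Alternatives were edgeR 4.0.16 (quasi-likelihood, TMM), the Wald test, TMM factors, a filter of 10 counts in 3 libraries, a replicate block and each library left out. Tested on simulated data, it missed part of the smaller changes, and the share of false calls was above the adjusted p threshold. All pairs of libraries differed beyond sampling noise (lowest mean chi-square per gene 3.35).

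The target genes and all lists were chosen with earlier results of these data known. All 9 target genes are named. From the other lists every called gene, the coactivators and TEAD factors, Lats1, Gas6 and Srf are named, and other genes were named after their values were seen. A gene of the junction list is not reported here by name. Positions and promoters are from RefSeq (GRCm38.p6), exon overlaps from GENCODE vM39. Exons of 5 of the 9 target genes (Ankrd1, Ccn1, Ccn2, Crim1 and Lats2) overlap another annotated gene, mostly antisense, which leaves their counts uncertain there.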

Additional observations from a re-analysis of the deposited data

Results flagged for a closer look

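In the shBrca2 group of 4 libraries, 3 of 27 named genes had 1 library apart from the rest by Dixon's test at the 95% level, which chance gives in about 1 of 20 groups. All 3 values were from shBrca2 replicate 3, the library with the fewest counts. Ccn2 had 294 normalized counts there against 755 to 803 in the other shBrca2 libraries. Yap1 had 288 against 221 to 231. Srf, the serum response factor, had 114 against 145 to 149.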

How the results depend on the processing

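Over all genes, leaving out 1 library gave 261 to 610 genes called higher and 354 to 695 called lower, against 481 and 673. The lowest counts came without shBrca2 replicate 1, and counts were also over 1.5 times smaller when replicate 1 of shControl (264 and 366), replicate 4 of shBrca2 (290 and 372) or, for lower genes, replicate 4 of shControl (418) was left out. The number of target genes called lower was 1 to 2, being 2 when replicate 2 of either group was left out, since Ccn1 was then called, and the number called higher was 1 in all fits. With the replicate number as a block 211 and 280 genes were called, 459 of these 491 being among the 1154. Same-numbered libraries did not deviate together (correlations of -0.18 to -0.13 over 3 pairs, 6735 genes), so the numbers were not taken as pairs. The block changed no call of a target gene and ended those of Dock5, Vgll3, Map4k4 and Tyro3. Of 324 values for 27 named genes, 282 kept sign and side of the threshold, 22 lost the call and 4 gained it. The other 16 changed sign, none of them a called gene. Ccn2 was at 0.12 and Crim1 at 0.070 with the block. With 1 library left out Ccn2 ran from -0.25 to 0.10, Crim1 from -0.23 to 0.090, Yap1 from -0.10 to 0.032, Wwtr1 from -0.018 to 0.38 and Vgll4 from -0.35 to 0.34. The cause of these shifts was not tested. Depth limits Ankrd1, Ajuba and Crim1 most, at 7 to 87 raw counts per library.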

Other observations

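Serum response factor and its actin-sensing cofactors share several targets with YAP, and 10 genes of that program were examined. 1 was called, Acta2, which encodes smooth muscle actin and rose 2.10-fold (DESeq2 adjusted p = 0.018); it was not called without shControl replicate 4 (log2 fold change 0.76) or without shBrca2 replicate 4 (0.99), and 301 of its exon bases lie in Stambpl1 on the opposite strand. Vcl, which encodes the adhesion protein vinculin, had 202, 153 and 183 normalized counts in shControl and 260, 266, 207 and 259 in shBrca2. These groups did not overlap, but the log2 fold change of 0.47 did not pass (DESeq2 adjusted p = 0.11). Cnn1, Tagln, Tpm1, Myl9 and Flna had log2 fold changes of 0.62, 0.38, 0.27, 0.04 and 0.18, Srf was at -0.31, and none was called. Of the 10 genes 8 were above 0 and 2 below. The median over the 10 genes was 0.22, and over all genes tested 9.04% were called.

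Of 10 junction and polarity genes that act on the pathway 0 were called by DESeq2 and 0 by edgeR. DESeq2 called 9.04% of all genes tested. An unadjusted DESeq2 p under 0.05 was found for 2 of the 10, Dchs1 being 1 of these. Limd1, which like Ajuba binds LATS kinases, was even over the libraries, at 347, 331 and 329 normalized counts in shControl and 338, 330, 326 and 309 in shBrca2. The protocadherin gene Dchs1 had 148, 240 and 160 in shControl and 147, 140, 86.4 and 103 in shBrca2. The groups were narrowly apart, and the log2 fold change of -0.60 did not pass (DESeq2 adjusted p = 0.17). Ankrd23, a relative of Ankrd1, was at -0.05 ± 0.35 (SE).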
